A study of Mus musculus with 18 samples.

Results

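Cre gesicles are cell-derived vesicles that carry Cre recombinase into cultured cells. The comparison here was between Ctrl mouse tail tendon fibroblasts (TFs) that received Cre gesicles and Ctrl TFs that did not, both kept for 4 days in 1% O2. It used 6 of the 18 libraries of the series, 3 with gesicles and 3 untreated, taken by sample title and matched to the table's columns through the sample descriptions. The labels give wild-type as the genotype of both groups, while the study's methods give Ctrl TFs as Cre-negative, from mice of both sexes aged 4 to 6 months, and give Cre-negative Ctrl mice as carrying floxed *Hif1a*. The labels and the methods thus differ on whether these cells held an allele that Cre could delete, which the counts do not settle. The cells crawled out of tail tendons in collagen gels, were passaged, and were plated in DMEM/F12. The labels give 10% serum where the study's methods give a lower share. The gesicle dose and the time of addition are not given in the sources used here. No library received vesicles without Cre, so Cre and the vesicle itself cannot be told apart as sources of a difference. Side by side stand the same treatment in 20% O2 (Ctrl against Ctrl with gesicles, 3 libraries each) and the 3 cKO libraries in 1% O2, whose TFs came from mice with *Scx*Cre and floxed *Hif1a*.

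*Hif1a* encodes the oxygen-regulated subunit of HIF-1. In normal oxygen, prolyl hydroxylases mark this subunit for destruction through the VHL protein. In low oxygen it persists, pairs with ARNT, binds hypoxia response elements and raises genes for glucose uptake, glycolysis, lactate export and mitochondrial restraint. A separate program, the interferon response, follows the sensing of foreign or misplaced nucleic acid or of interferon itself. Transcription factors such as STAT2 and IRF9 then bind interferon-stimulated response elements and raise antiviral genes and the machinery that loads peptides onto MHC class I. Below, genes of the hypoxia program were mostly lower with gesicles. Those of the interferon program were mostly higher, though the groups overlapped in every gene of the interferon-stimulated list.

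Short stretches before the start sites of genes from each program are shown. Only list members with the core marked below before the start site are printed, taken by smallest unadjusted p. Members whose stretch overlapped an annotated exon were passed over, also where their p was smaller. The stretches thus do not stand for all members. They were read from RefSeq windows (GRCm38.p6, 250 bases before to 50 after each start), are written 5′ to 3′ on the gene's strand, and none overlaps an exon annotated in GENCODE M21. In the first 4, capitals mark the core of the hypoxia response element, ACGTG or GCGTG on either strand. The match in *Pfkfb3* nearest its start reads ACGTG on both strands, so 2 matches overlap there.
Pfkl, chr10:78009882-78009981, minus strand: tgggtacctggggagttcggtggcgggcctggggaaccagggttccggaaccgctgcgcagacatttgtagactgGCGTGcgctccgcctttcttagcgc
Pdk1, chr2:71873071-71873170, plus strand: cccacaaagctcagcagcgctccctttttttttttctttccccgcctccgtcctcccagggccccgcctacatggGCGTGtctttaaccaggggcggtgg
Pfkfb3, chr2:11502118-11502217, minus strand: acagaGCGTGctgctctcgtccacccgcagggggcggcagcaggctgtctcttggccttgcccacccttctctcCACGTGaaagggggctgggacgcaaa
P4ha1, chr10:59323196-59323295, plus strand: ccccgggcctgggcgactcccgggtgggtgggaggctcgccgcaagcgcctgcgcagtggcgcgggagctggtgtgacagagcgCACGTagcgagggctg

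In the other 4, capitals mark the core of the interferon-stimulated response element, GAAA, any 2 bases and GAAA again, on either strand. In *Bst2* 2 matches overlap.
B2m, chr2:122147508-122147577, plus strand: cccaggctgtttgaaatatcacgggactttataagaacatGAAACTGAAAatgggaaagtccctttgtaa
Bst2, chr8:71537567-71537636, minus strand: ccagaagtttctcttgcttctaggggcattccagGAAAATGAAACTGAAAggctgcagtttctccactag
Oas3, chr5:120777705-120777774, minus strand: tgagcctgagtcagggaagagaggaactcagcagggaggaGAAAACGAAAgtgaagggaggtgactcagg
Trim30a, chr7:104465200-104465269, minus strand: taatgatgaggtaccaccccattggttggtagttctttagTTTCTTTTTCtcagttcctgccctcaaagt

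Of the 55 hypoxia-response and glycolysis genes tested, 48 had a RefSeq window, and 52 of their 69 windows (75.4%) held the hypoxia core, against 43.8% of all 32851 windows. Of the 58 interferon-stimulated and MHC class I genes tested, 43 had a window, and 23 of their 50 windows (46.0%) held the interferon core, against 3.44% of all windows. In the other direction the hypoxia core was in 46.0% of the interferon and MHC windows, and the interferon core in 2.90% of the hypoxia and glycolysis windows. The windows of *Tapbp*, *H2-K1* and *H2-D1* held no interferon core, and *Tap2* had no window. These counts are matches of letters, not binding sites, and base composition was not matched between the sets.

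The 6 libraries held 32146235 to 39221066 estimated counts, and their TMM factors lay between 0.962 and 1.024. Libraries with the same number shared their sex-linked RNA, since replicate 1 of each group had no *Xist* count and 5873 or 6415 *Ddx3y* counts, while replicates 2 and 3 had 400 to 667 *Xist* counts and at most 5 *Ddx3y* counts. The 11 fibroblast markers were all tested, with summed levels of 9320 to 16100 CPM (counts scaled to a common library size) without gesicles and 9820 to 16900 with them, and 7 of 8 tendon markers were tested, *Kera* being at 3 counts or fewer throughout. *Adgre1*, *Cx3cr1*, *Tyrobp* and *Fcer1g* of the leukocyte list, *Kdr*, *Tie1*, *Emcn* and *Cldn5* of the endothelial list and *Krt5*, *Krt14* and *Krt1* of the keratinocyte list were at 3 counts or fewer in each of these libraries. Other members were high enough to be tested, namely 5 of 11 leukocyte, 3 of 9 endothelial and 2 of 7 keratinocyte markers. Summed endothelial markers were at 14.2 to 30.4 CPM without gesicles and 19.7 to 27.6 with them. All 8 pericyte and smooth muscle markers were tested, with sums of 54.9 to 101 CPM without gesicles and 63.0 to 95.6 with them. The libraries with replicate number 2 stood apart in the interferon response, the untreated one being the highest of its group and the gesicle one the lowest of its group, and the results for the interferon and MHC lists are given with and without them. These 2 libraries were also the most alike in their counts of any compared pair (chi-square per degree of freedom 15.3). The next lowest was 32.3, for the untreated and gesicle libraries with number 2 in 20% O2. The labels were kept as given.

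*Hif1a* RNA (ENSMUSG00000021109, chromosome 12, 73901375 to 73947530, plus strand) stood at 488, 365 and 406 CPM in the untreated libraries and at 394, 370 and 387 CPM with gesicles. The groups overlapped, and the log2 fold change was -0.13 (SE 0.14, unadjusted p = 0.375, edgeR). Without untreated replicate 1 the value was 0.02. A count over the whole gene does not show whether a part of it was deleted. Among the other HIF subunits and oxygen sensors, *Egln1*, the prolyl hydroxylase that HIF itself raises, stood at 108, 107 and 101 CPM without gesicles and at 77.3, 86.6 and 74.7 CPM with them, and did not overlap (log2 fold change -0.41, SE 0.12, unadjusted p = 0.00388). *Vhl* also did not overlap, at 52.3 to 63.1 against 49.9 to 51.7 CPM (-0.18, SE 0.10, unadjusted p = 0.0882). *Arnt*, *Arnt2*, *Epas1*, *Egln2*, *Egln3* and *Hif1an* overlapped, with log2 fold changes between -0.21 and 0.01, and *Hif3a* was too low to be tested.

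The table also counts 4 transgene sequences. The *Cre* and *eGFP* rows were at 0 in each Ctrl and gesicle library at both O2 levels, while the 3 cKO libraries in 1% O2 held 0, 2 and 3 *Cre* counts, and the *mCherry* row was at 0 in all 18 libraries. A count of 0 allows up to 0.0778 to 0.0971 CPM in these 6 libraries, by counting error alone. The *tdTomato* row had 3, 1 and 1 counts in the gesicle libraries in 1% O2 and 0 in the untreated ones, so its presence ran with the gesicle label, at the level of single reads.

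Over the 16174 genes tested, none passed a Benjamini-Hochberg adjusted p under 0.05 with a fold change of at least 1.5 in edgeR (0.0% called), and the smallest adjusted p was 1. An unadjusted p under 0.05 was reached by 171 higher genes (1.06%) and 153 lower genes (0.946%), 324 in all (2.0%). DESeq2 and limma voom also called none, with 345 (2.13%) and 647 (4.0%) genes at an unadjusted p under 0.05. The replicate number was also used as a block. Same-numbered libraries of the groups matched in sex-linked RNA, and each pair's deviations correlated at over 0.1. This does not settle the pairing, since replicates 2 and 3 shared their sex-linked RNA. Untreated replicate 2 correlated with gesicle replicate 1 at 0.275, against 0.257 with its own number. With the block, edgeR again called none (535 genes or 3.31% at an unadjusted p under 0.05, smallest adjusted p 0.437). DESeq2 with the block called 9 (0.0556%). Those 9 were *Pdk1*, *Slc16a3*, *Aldoc*, *Ak4* and *Fam220a*, lower with gesicles, and *Lgals3bp*, *B2m*, *Bmp4* and *Gm47204*, higher with gesicles. *Gm47204* had 48 counts in gesicle replicate 2 and 0 in the other 5 of these libraries, so its call came from 1 library. Values below are therefore levels and differences of genes that did not pass the adjusted test in edgeR, unless stated. The groups did not overlap in 480 genes that were higher (2.97%) and 542 that were lower (3.35%) with gesicles, and the median log2 fold change of all genes was -0.01.

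**Figure D1:**
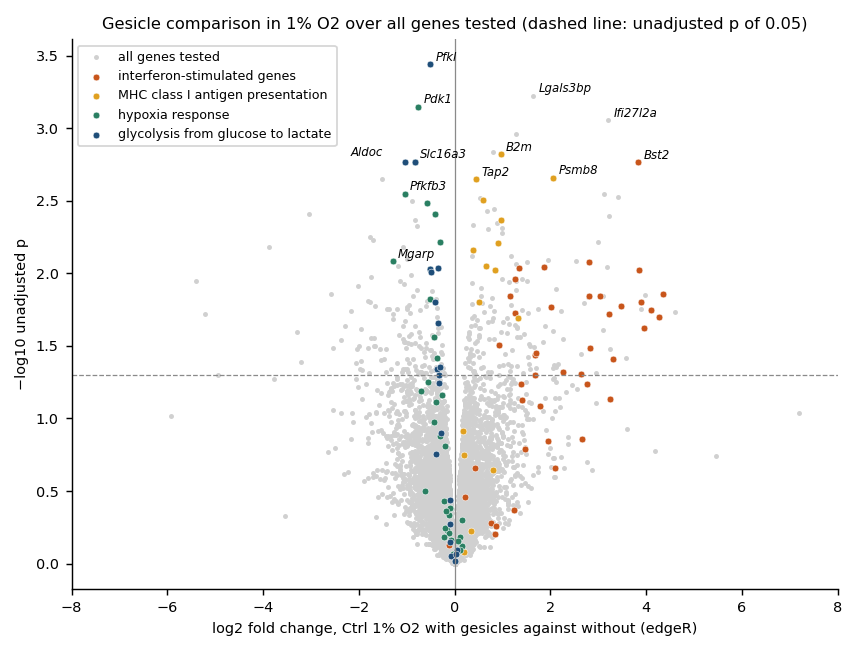
Log2 fold change (x axis) and −log10 unadjusted p (y axis) of each of the 16174 genes in the gesicle comparison in 1% O2, edgeR, with 4 lists coloured and genes in both of the hypoxia and glycolysis lists drawn as glycolysis. Glycolysis and hypoxia-response genes past the dashed line (unadjusted p of 0.05) lie left of 0, and interferon-stimulated and MHC class I genes past it lie right of 0.

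Glycolysis RNA was lower with gesicles. In bulk RNA a lower level cannot be told apart from fewer cells that express the gene. Of the 21 genes of the path from glucose to lactate, 18 had a negative log2 fold change, 11 were lower at an unadjusted p under 0.05 and none higher (background 0.946% lower), and in 12 of them each gesicle library lay below each untreated library (background 3.35%). The median log2 fold change was -0.32. No member passed the adjusted test in edgeR.

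*Pfkl*, the liver-type phosphofructokinase that commits sugar to glycolysis, had the smallest unadjusted p of the list. It stood at 335, 278 and 276 CPM without gesicles and at 217, 215 and 191 CPM with them, a log2 fold change of -0.51 (SE 0.11, unadjusted p = 0.000364, 0.701 times the untreated level). The 3 gesicle libraries sat together, well under the lowest untreated one. *Aldoc*, an aldolase that splits the sugar, stood at 8.97, 9.65 and 5.55 CPM without and at 4.64, 3.88 and 3.22 CPM with gesicles (-1.04, SE 0.28, unadjusted p = 0.0017).

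*Slc16a3*, the transporter that exports lactate, had 180, 152 and 134 CPM without gesicles and 97.7, 98.4 and 65.4 CPM with them (-0.83, SE 0.22, unadjusted p = 0.00171). In 20% O2 the same gene was almost silent, with mean levels of 1.79 CPM untreated and 1.27 CPM with gesicles. *Slc2a1*, the main glucose transporter of fibroblasts, stood at 241, 148 and 151 CPM against 152, 117 and 110 CPM (-0.51, SE 0.17, unadjusted p = 0.00937). Here gesicle replicate 1 reached into the untreated range, so the groups overlapped. *Ldha*, which makes lactate, stood at 2591, 1910 and 2015 CPM against 1621, 1545 and 1477 CPM (-0.49, SE 0.17, unadjusted p = 0.00982), with no overlap.

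The other enzymes of the path differed less. *Tpi1* (-0.42), *Pgam1* (-0.36), *Gpi1* (-0.35), *Pgk1* (-0.35), *Pkm* (-0.32), *Aldoa* (-0.32), *Eno1* (-0.30) and *Gapdh* (-0.28) each had no gesicle library above an untreated one. *Aldoa* and *Gapdh* missed the unadjusted threshold in edgeR (unadjusted p = 0.0574 and 0.125). The remaining members overlapped, with *Eno2* at 0.04, *Ldhb* at 0.03, *Pfkp* at 0.01, *Pgam2* at -0.07, *Pfkm* at -0.09, *Hk1* at -0.10 and *Eno3* at -0.11. *Hk2*, a hexokinase, was at -0.39 (unadjusted p = 0.176).

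Untreated replicate 1 carried part of the size of this difference. It held the highest level of the untreated libraries for each of the genes past the unadjusted threshold except *Aldoc*, for example 5190 CPM of *Pkm* against 3583 and 3564 CPM. Without it the median of the list was -0.18, 3 members passed the unadjusted threshold (background 0.421%), and 14 did not overlap (background 7.12% in 2 against 3 libraries). Without gesicle replicate 1 and gesicle replicate 2 the members past it were 6 and 7 (background 1.28% and 0.671%), with medians of -0.32 and -0.29. All 6 ways of leaving out a library kept a negative median.

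The wider hypoxia response list shares *Slc2a1* and *Slc16a3* with the glycolysis list. Its 36 genes were all tested and went mostly the same way. Of these, 29 had a negative log2 fold change, 11 were lower at an unadjusted p under 0.05 and none higher (background 0.946% lower), and 16 were lower without overlap (background 3.35%). The median was -0.24. Without untreated replicate 1, 7 members were past the unadjusted threshold (background 0.421%), with a median of -0.23.

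Of the genes that restrain mitochondria, *Pdk1*, the kinase that shuts the pyruvate dehydrogenase gate, stood at 95.8, 99.4 and 96.5 CPM without gesicles and at 57.8, 68.6 and 46.1 CPM with them (-0.76, SE 0.18, unadjusted p = 0.000714). The untreated libraries were within 4 CPM of each other, and each gesicle library was lower by far more than that. With the replicate block the adjusted p was 0.437 in edgeR and 2.2e-04 in DESeq2. *Bnip3*, a mitophagy receptor, stood at 408, 356 and 397 CPM against 233, 287 and 298 CPM (-0.51, SE 0.19, unadjusted p = 0.0149). *Ndufa4l2*, which lowers complex I activity, was at 71.6 to 85.9 against 50.7 to 66.5 CPM (-0.44, SE 0.25, unadjusted p = 0.106). *Higd1a* and *Fam162a*, both mitochondrial proteins, were at -0.30 and -0.59, *Fam162a* with 208, 157 and 174 against 121, 117 and 121 CPM. *Mgarp* stood at 7.32, 6.08 and 4.61 CPM against 2.53, 2.94 and 1.87 CPM (-1.29, SE 0.43, unadjusted p = 0.00828).

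Of the regulators, *Pfkfb3*, which makes the activator of phosphofructokinase, stood at 63.8, 31.6 and 35.3 CPM against 27.1, 22.8 and 13.5 CPM (-1.04, SE 0.30, unadjusted p = 0.00284). Its groups did not overlap, although untreated replicate 1 was far above the other two. *Ddit4*, an inhibitor of mTORC1 (-0.42), *Kdm3a*, a histone demethylase (-0.38), *Narf* (-0.37), *Mxi1*, an antagonist of MYC (-0.26), *Ankrd37* (-0.70) and *Stc2* (-0.56) were lower without overlap, and of these *Ddit4* and *Narf* passed the unadjusted threshold. *P4ha1*, the collagen prolyl hydroxylase subunit, was steady within groups at 574, 625 and 590 against 490, 506 and 459 CPM (-0.30, SE 0.09, unadjusted p = 0.00612).

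Not all hypoxia genes shared the difference. *Adm*, the vasodilator adrenomedullin, rose with low oxygen in untreated TFs (log2 fold change 1.24, adjusted p = 0.00452), yet stood at 570, 583 and 747 CPM without and at 612, 593 and 901 CPM with gesicles (0.15). *Vegfa* was at -0.11, *Ndrg1* at 0.11, *Bhlhe40* at 0.07, *Hilpda* at 0.03, *P4ha2* at -0.13 and *Pgf* at 0.15, each with overlapping groups. *Egln3* (-0.20) and *Car9* (-0.61, at 1.52 to 5.30 against 0.87 to 3.66 CPM) rose with low oxygen and overlapped here as well.

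**Figure D2:**
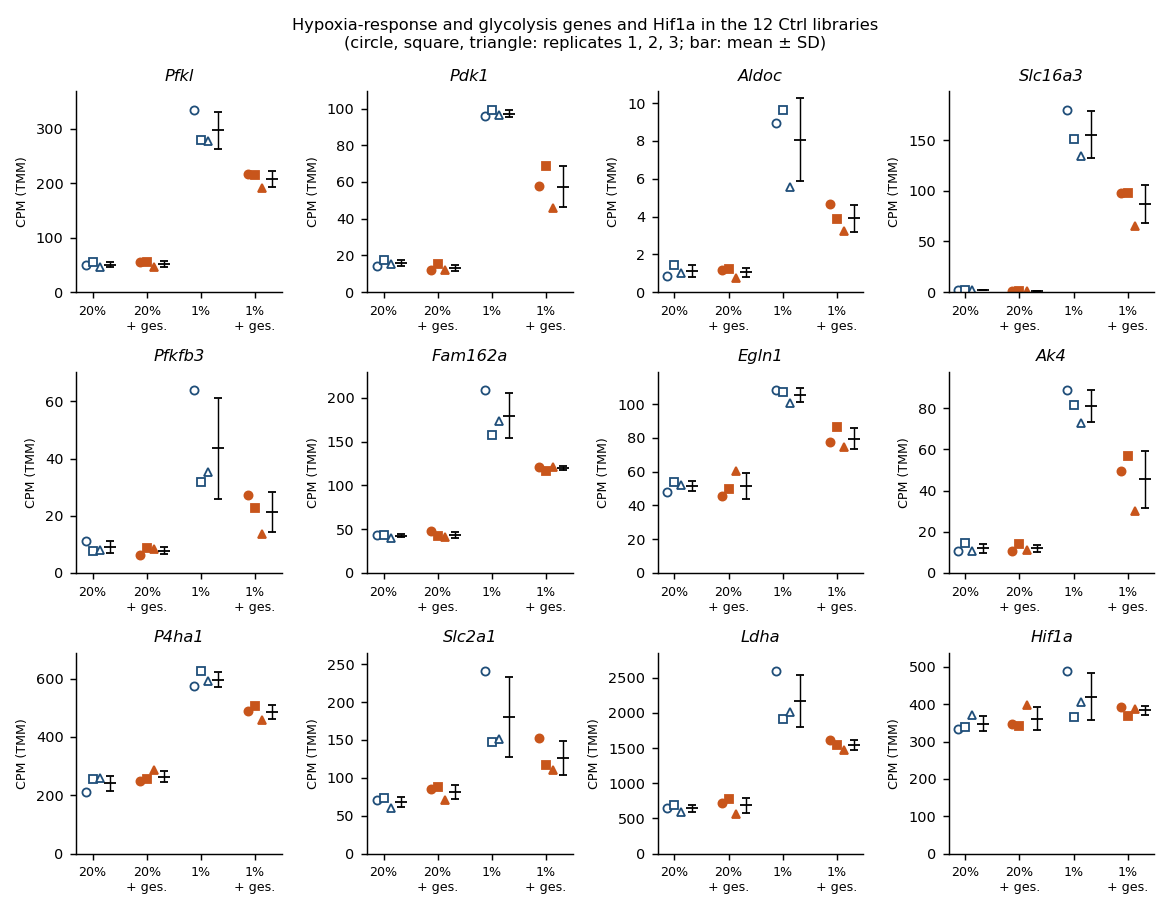
Levels in TMM-scaled CPM (y axis, from 0) of 11 hypoxia-response and glycolysis genes and *Hif1a* in the 12 Ctrl libraries, by O2 level and gesicles (ges.), with the mean ± SD of 3 libraries beside the points. For *Pdk1* the untreated 1% libraries sit between 95.8 and 99.4 CPM and the gesicle ones between 46.1 and 68.6 CPM, while both groups in 20% O2 lie far lower.

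In 20% O2 the medians of the same lists were nearer to 0. The glycolysis median was 0.04 and the hypoxia median -0.05 for gesicles against none, and 1 glycolysis member and 3 hypoxia members were lower at an unadjusted p under 0.05 (background 1.32%). Mean list levels per library, set against the untreated mean at the same O2 level, were 0.09, 0.01 and -0.15 for glycolysis with gesicles in 20% O2 and -0.27, -0.28 and -0.41 in 1% O2. For the hypoxia response they were -0.05, -0.16 and -0.08 in 20% O2, against -0.05, -0.06 and 0.11 untreated there, and -0.33, -0.21 and -0.41 in 1% O2. Of the hypoxia genes 4 were lower without overlap in 20% O2 (background 5.63%), and *Slc16a3* was at 1.93, 1.71 and 1.73 CPM there without gesicles and 1.39, 1.11 and 1.302 CPM with them (-0.50, SE 0.26, unadjusted p = 0.0719). Within same-numbered pairs in 1% O2 the glycolysis level differed by -0.40, -0.24 and -0.33 and the hypoxia level by -0.33, -0.24 and -0.39, so all 3 pairs had a negative difference.

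The difference between the 2 gesicle effects was tested gene by gene as an interaction. No gene passed the adjusted test in edgeR, and 138 genes (0.853%) had a lower effect in 1% O2 at an unadjusted p under 0.05. Among them were 8 of the 21 glycolysis genes, namely *Pfkl* (interaction -0.56, unadjusted p = 0.00334), *Gpi1* (-0.52), *Slc2a1* (-0.76), *Pgk1* (-0.53), *Eno1* (-0.47), *Ldha* (-0.58), *Aldoc* (-0.94) and *Tpi1* (-0.50), and 4 hypoxia members, *P4ha1* (-0.42), *Slc2a1*, *Fam162a* (-0.63) and *Egln1* (-0.42). No glycolysis or hypoxia member was past it in the other direction. Read the other way, low oxygen raised 13 of 21 glycolysis genes in untreated Ctrl TFs and 9 in gesicle-treated ones (called in edgeR, 2.01% and 1.64% of all genes), with medians of 1.06 and 0.58, and 19 and 15 of the 36 hypoxia genes, with medians of 0.71 and 0.57. The response to oxygen was thus still present with gesicles.

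The cKO libraries in 1% O2 give a side by side value, with the caution that both comparisons use the same 3 untreated libraries. *Hif1a* RNA was still counted in cKO replicates 1 to 3, at 3007, 13838 and 20137 of 6857558, 35082090 and 39782214 counts. The first of these libraries was thus far smaller. Sex-linked RNA also differed, with *Xist* counts in cKO replicate 1 only but in untreated replicates 2 and 3. For cKO against Ctrl the glycolysis median was -0.26 and the hypoxia median -0.19. *Pfkl* was at -0.72 in cKO (adjusted p = 0.0239, called lower in edgeR with 0.0309% of all genes) and at -0.51 with gesicles, *Slc16a3* at -0.83 and -0.83, *Pfkfb3* at -0.997 and -1.04, and *Ak4* at -0.84 and -0.83. *Fam162a* was at 0.10 in cKO and -0.59 with gesicles, and *Bnip3* at 0.10 and -0.51. *Narf* was called lower in cKO (-0.94, adjusted p = 0.0426) and stood at -0.37 with gesicles.

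Interferon-stimulated RNA was higher in 2 of 3 gesicle libraries. Of 42 genes tested, 41 had a positive log2 fold change and 25 were higher at an unadjusted p under 0.05 (background 1.06%), but none had groups that did not overlap and none passed the adjusted test. The median log2 fold change was 1.98. Mean list levels, against the untreated mean, were -1.11, 2.05 and -0.94 in untreated replicates 1 to 3 and 3.98, -0.32 and 3.08 with gesicles. Gesicle replicates 1 and 3 were thus above each untreated library, gesicle replicate 2 was below untreated replicate 2, and the pair with number 2 differed by -2.37 where the pairs with numbers 1 and 3 differed by 5.09 and 4.02.

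*Isg15*, the ubiquitin-like antiviral modifier, shows the pattern at 0.138, 7.002 and 0.233 CPM without gesicles and at 77.2, 0.78 and 47.2 CPM with them (4.10, SE 1.56, unadjusted p = 0.018), and the log2 fold change was 7.79 without untreated replicate 2 and 4.70 without gesicle replicate 2. Untreated replicate 2 was the highest of its group and gesicle replicate 2 the lowest of its own. *Bst2*, the tether that holds budding virus at the cell surface, stood at 3.70, 13.4 and 4.17 CPM against 196, 8.77 and 98.3 CPM (3.83, SE 1.02, unadjusted p = 0.00171). *Oas2*, one of the sensors of double-stranded RNA, was at 0, 0.63 and 0 CPM against 9.72, 0.16 and 2.59 CPM, and *Oasl2*, of the same family, at 0.19, 13.1 and 0.70 CPM against 168, 1.55 and 98.5 CPM (4.28, SE 1.66, and 7.63 without untreated replicate 2).

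The transcription factors of the response followed the same order of libraries. *Irf7*, which amplifies the response, stood at 2.60, 30.01 and 2.83 CPM against 151, 4.53 and 95.5 CPM (2.83, SE 1.21, and 4.96 without untreated replicate 2). *Irf9* was at 1.68 (2.87 without that library) and *Stat2* at 1.67. *Ifit2* (-0.12) and *Irf1* (0.21) had the smallest log2 fold changes of the list.

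The count of interferon members past the unadjusted threshold depended on which library was left out. It was 39 of 42 (background 1.62%), with a median of 4.19, without untreated replicate 2, and 30 members then did not overlap (background 6.39%). It was 33 (background 1.39%) without gesicle replicate 2, with a median of 2.52 and 36 not overlapping (background 7.37%). Without untreated replicate 1 or 3 it was 7 or 8 (background 0.763% or 1.29%). Without gesicle replicate 1 or 3 it was 3 or 18 (background 1.13% or 0.731%). No member was past it in the lower direction in any of these. With the replicate block 30 were past it in edgeR (background 1.87%) and 37 in DESeq2 (background 2.15%). With the sample weights of limma voom 6 were past it (background 1.79%).

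**Figure D3:**
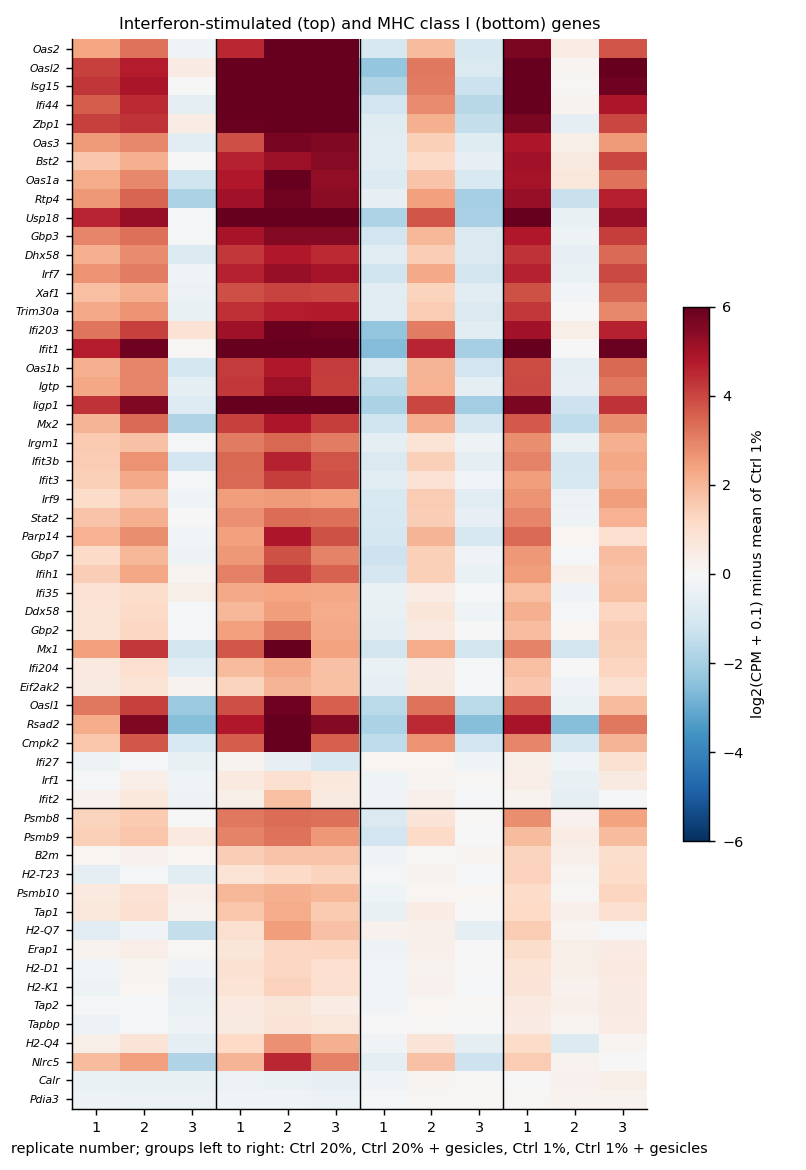
Of the interferon-stimulated genes 41 of 42 (top), and the MHC class I genes (bottom), in the 12 Ctrl libraries, as log2(CPM + 0.1) minus the mean of the 3 untreated 1% libraries, with the colour scale ended at 6 in each direction. Columns 1 and 3 of the gesicle group in 1% O2 are red and column 2 is near white, while among the untreated 1% libraries column 2 is the red one.

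The MHC class I genes went the same way with less spread. All 16 had a positive log2 fold change, with a median of 0.62. At an unadjusted p under 0.05, 11 were higher (background 1.06%), and 7 did not overlap between the groups (background 2.97%). *B2m*, the invariant light chain, stood at 268, 330 and 350 CPM without gesicles and at 795, 390 and 662 CPM with them (0.96, SE 0.25, unadjusted p = 0.00151), and even gesicle replicate 2 was above each untreated library. With the replicate block its adjusted p was 1 in edgeR and 0.0394 in DESeq2. *H2-D1*, a classical heavy chain, was at 264, 335 and 284 CPM against 523, 372 and 439 CPM (0.60, SE 0.17, unadjusted p = 0.00312), and *H2-K1*, another, at 75.0, 98.6 and 79.0 against 143, 99.8 and 116 CPM (0.50, SE 0.19).

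Of the genes that supply and load peptides, *Tap2*, a subunit of the peptide pump, stood at 47.7, 56.7 and 54.9 CPM against 78.5, 64.7 and 73.3 CPM (0.44, SE 0.12, unadjusted p = 0.00226), and *Tapbp*, which bridges the pump and the heavy chain, at 207, 219 and 210 against 297, 236 and 291 CPM (0.37, SE 0.12). *Psmb8*, a subunit of the immunoproteasome, was at 1.85, 5.90 and 3.58 against 24.4, 4.11 and 18.3 CPM (2.05, SE 0.56, unadjusted p = 0.00219), so here replicate 2 overlapped. *Erap1*, the peptide trimmer, did not overlap (0.65), nor did the chaperone *Pdia3* (0.17). Without each library in turn 8 to 11 MHC members were past the unadjusted threshold (background 0.731% to 1.62%) and the median was 0.415 to 0.98.

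In 20% O2 gesicles gave the same direction more evenly. All 3 gesicle libraries there were above each untreated library for 35 of the 42 interferon genes and 13 of the 16 MHC genes (background 6.88%), with medians of 2.41 and 1.36. *Tapbp*, *H2-K1*, *H2-D1* and *Tap2* were called there in edgeR (4 of 16174 genes, 0.0247%), at 0.89, 1.28, 1.15 and 0.78, against 0.37, 0.50, 0.60 and 0.44 in 1% O2. As interactions, these 4 were at -0.51, -0.78, -0.55 and -0.34, with unadjusted p of 0.00843, 0.00944, 0.0361 and 0.0676, none of them past the adjusted test. *H2-Q7*, a nonclassical heavy chain at 0.26 to 1.42 CPM in the 1% libraries, had an interaction of -2.17 (unadjusted p = 0.0322). No interferon-stimulated gene had an interaction at an unadjusted p under 0.05.

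**Figure D4:**
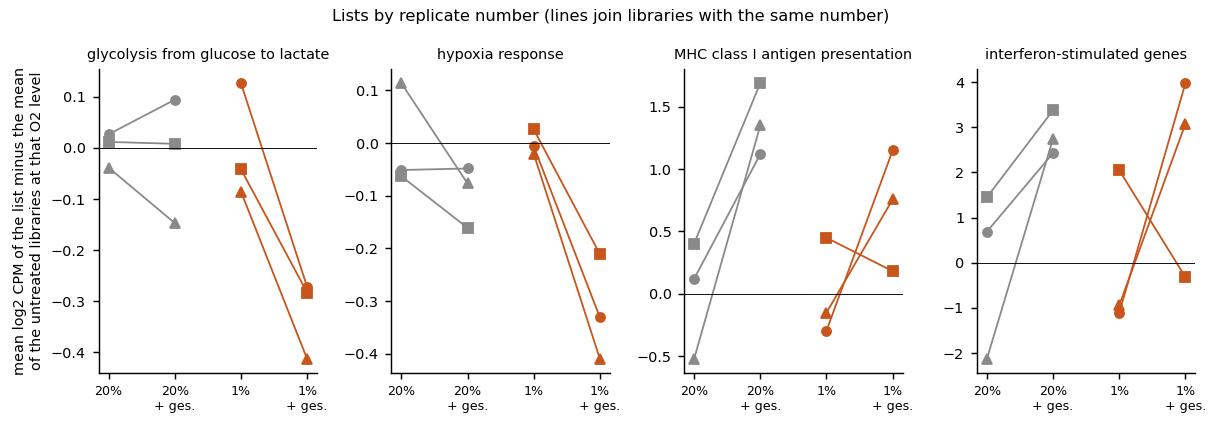
Mean log2 CPM of 4 lists per library, set to the mean of the untreated libraries at the same O2 level (y axis, log2), with lines joining libraries of the same replicate number. In 1% O2 all 3 lines slope down for glycolysis and for the hypoxia response, whereas for MHC class I and interferon genes lines 1 and 3 slope up and line 2 slopes down.

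The sensors upstream of interferon followed the interferon genes where they belong to them. Of 13 nucleic acid sensors and adaptors tested, 2 were past the unadjusted threshold (background 1.06%). They were *Zbp1* (3.89, and 6.76 without untreated replicate 2) and *Ddx58* (1.27), both also in the interferon list. *Tlr4* (-0.26) and *Tbk1* (-0.10) had the lowest values. Among NF-kappa-B targets, cytokines and chemokines 1 of 23 was past the threshold (background 1.06%). This was the adhesion molecule *Vcam1*, at 557, 741 and 800 CPM against 851, 826 and 922 CPM (0.31, SE 0.13, unadjusted p = 0.0284). *Cxcl12* was at 0.55 and *Ccl5* at 0.91 with overlapping groups. Summed leukocyte markers were 25.1 to 34.0 CPM without and 23.5 to 36.8 CPM with gesicles, so they did not separate the groups.

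By the rule for single genes (at least 1 CPM on average, no overlap, a fold change of at least 1.5, smallest unadjusted p), the 15 higher genes included several of the same kind. *Lgals3bp*, a secreted galectin-binding glycoprotein (chromosome 11, 118392751 to 118402092), led them at 188, 259 and 188 CPM against 980, 281 and 718 CPM (1.64, SE 0.38, unadjusted p = 0.000598). *Ifi27l2a*, an interferon-stimulated gene that the list did not hold, was at 1.41, 1.52 and 0.70 CPM against 25.0, 1.72 and 6.53 CPM (3.20, SE 0.78, and 1.81 without gesicle replicate 1), and *Shisa5* at 421, 412 and 425 against 733, 433 and 741 CPM (0.60, SE 0.17). In these 3 genes replicate 2 with gesicles was only just above the untreated range.

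Others of the 15 were more even across the 3 gesicle libraries. *Igfbp2*, which binds insulin-like growth factors, stood at 253, 175 and 258 CPM against 558, 345 and 447 CPM (0.98, SE 0.40, unadjusted p = 0.0252), 1.73 to 2.21 times its same-numbered partner. *Gadd45g*, a stress-response gene, was at 41.2, 72.7 and 92.5 against 123, 107 and 178 CPM (0.98, SE 0.30), and *Cish*, a feedback inhibitor of cytokine signalling, at 0.52, 0.63 and 0.78 against 1.45, 1.1 and 1.84 CPM (1.18, SE 0.39). The transcription factor *Npas3* was at 0.47, 1.25 and 0.86 against 2.18, 2.30 and 1.75 CPM (1.27, SE 0.32), *Foxs1* at 0.88, *Eif4e3* at 0.68, and the predicted genes *Gm20431*, *Gm39090* and *Gm9797* at 0.80, 0.81 and 1.09.

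Of the 15 lower genes, 6 belong to the hypoxia or glycolysis lists (*Pdk1*, *Aldoc*, *Slc16a3*, *Pfkfb3*, *Fam162a* and *Mgarp*). *Ak4*, a mitochondrial adenylate kinase outside both lists, stood at 88.6, 81.7 and 72.8 CPM against 49.5, 56.9 and 30.1 CPM (-0.83, SE 0.25, unadjusted p = 0.0043), and it rose with low oxygen in untreated TFs (2.76, adjusted p = 2.56e-05). *Tfrc*, the transferrin receptor, was at 31.0, 35.5 and 29.0 against 21.4, 20.3 and 9.69 CPM (-0.89, SE 0.26, unadjusted p = 0.0032). *Aqp1*, a water channel, was at 170, 41.7 and 56.1 against 37.0, 16.9 and 39.2 CPM (-1.52, SE 0.42), with untreated replicate 1 far above the rest.

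*Fam220a* had a log2 fold change of -5.39 (SE 1.88, unadjusted p = 0.0114), at 0.41, 7.48 and 11.7 CPM without gesicles and 0.17, 0.16 and 0.12 CPM with them. Untreated replicate 1 was nearer to the gesicle libraries than to its own group. In 20% O2 *Fam220a* was at 6.12, 0.16 and 4.79 CPM with gesicles and at 10.03, 9.16 and 10.8 CPM untreated. In the cKO libraries in 1% O2 its SD was 8.47 CPM on a mean of 5.65 CPM. A level this low in a single library thus also came outside this comparison. *Ranbp3l* (-3.89) rested on 9.69 CPM in untreated replicate 1 against 0.51 and 0.67 CPM in the other two. *Lrrtm2* (-1.085), *Spry3* (-0.87), *Phtf1os* (-0.79) and *Casc1* (-0.95) were the rest of the 15, all at 3.81 CPM or less.

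**Figure D5:**
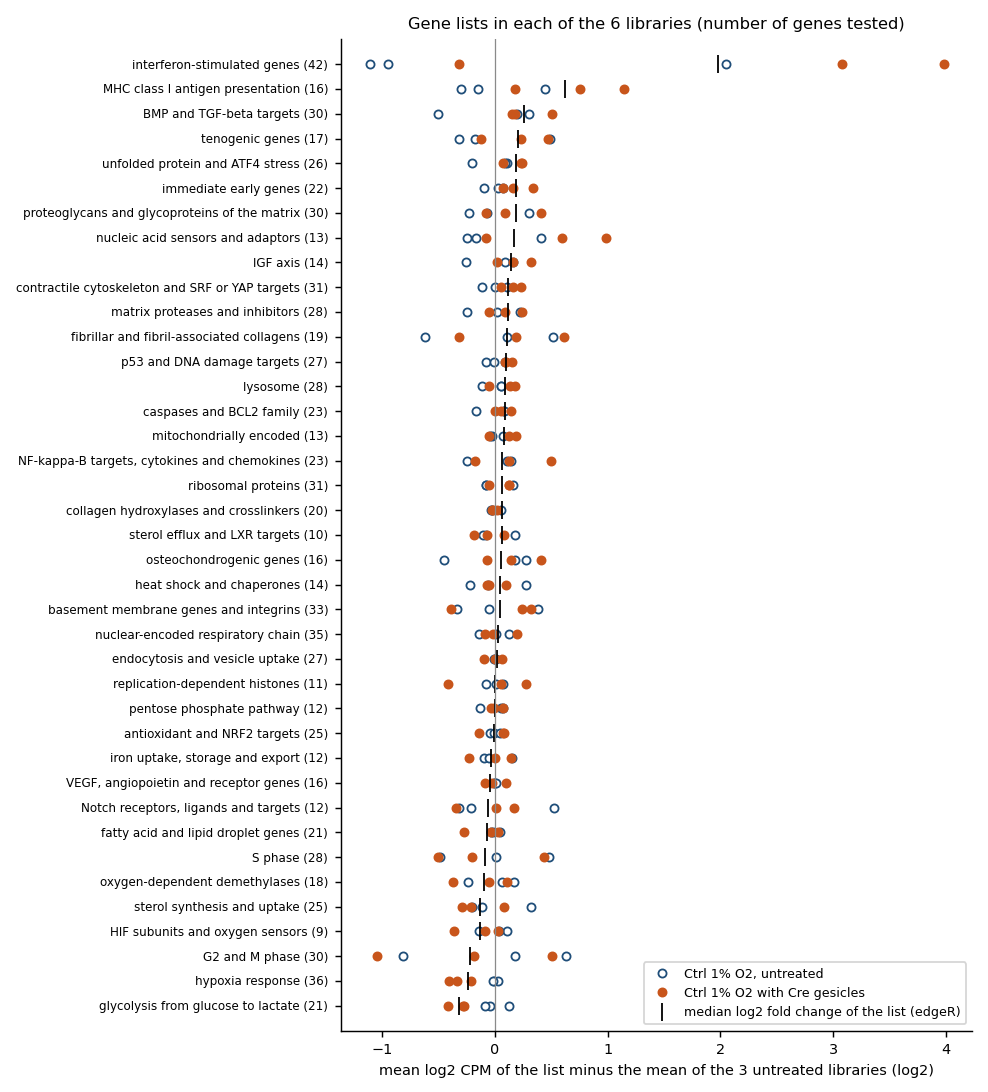
Mean log2 CPM of each of 39 gene lists in the 3 untreated (open) and 3 gesicle (filled) libraries in 1% O2, set to the untreated mean (x axis, log2), with the list's median log2 fold change as a black bar and the number of genes tested in parentheses. For glycolysis and the hypoxia response all filled points lie left of all open points, and the interferon list has the widest spread of both kinds.

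Other lists held at most 3 members past the unadjusted threshold in edgeR without the block (background 1.06% higher and 0.946% lower). The median over all genes was -0.01. With the block 5 of 31 contractile cytoskeleton and SRF or YAP targets and 5 of 22 immediate early genes were higher (background 1.87%). With the block in the 12 Ctrl libraries these were 8 and 6, beside 6 of 26 unfolded protein and ATF4 genes (background 2.58%). Values below are from the fit without the block unless stated. In the unfolded protein and ATF4 list, 23 of 26 genes had a positive value, 3 were past the unadjusted threshold (background 1.06%) and 5 did not overlap (background 2.97%), with a median of 0.19. *Hspa5*, the main chaperone of the endoplasmic reticulum, stood at 1537, 2212 and 2170 CPM against 2328, 2966 and 2664 CPM (0.43, SE 0.17, unadjusted p = 0.0227), and *Herpud1* (0.39) and *Creld2* (0.31) likewise did not overlap. In the BMP and TGF-beta list, 22 of 30 were positive and 2 past the threshold, with a median of 0.26. They were *Bmp4*, at 0.03, 0.51 and 0.67 CPM against 0.75, 1.1 and 2.11 CPM (1.70, SE 0.78), and *Pmepa1*, a feedback inhibitor of TGF-beta signalling (0.34, SE 0.15). Untreated replicate 1 was the lowest library for *Smad6* (0.55) and *Ccn2* (0.50), both with overlapping groups.

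Matrix and growth-factor genes gave a few single values. *Serpine2*, an inhibitor of plasminogen activators, stood at 238, 262 and 242 CPM against 306, 337 and 309 CPM (0.36, SE 0.12, unadjusted p = 0.00763), and *Mmp14*, a membrane collagenase, at 492, 579 and 681 against 691, 693 and 732 CPM (0.27, SE 0.12). *Plat*, the tissue plasminogen activator, was at -0.68 (unadjusted p = 0.0485) through untreated replicate 1, which held 553 CPM where the other 5 libraries held 197 to 227 CPM. *Igf1* was at 16.1, 27.4 and 26.6 against 33.4, 34.6 and 34.8 CPM (0.55, SE 0.20, unadjusted p = 0.0126). *Col8a1* (0.59), *Tpm1* (0.29) and *Abcg1* (-1.95) were the single members of their lists past the threshold, and *Abcg1* rested on 15.1 CPM in untreated replicate 1.

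Tenogenic genes did not separate the groups. None of 17 was past the threshold, with values from -0.65 (*Chodl*) to 0.71 (*Egr2*). Immediate early genes had 20 of 22 positive values and 5 higher without overlap (background 2.97%), of which *Zfp36* was past the threshold (0.35). Of the p53 and DNA damage targets 1 of 27 was past the threshold (background 1.06%). This was *Plk3*, at 14.2 to 16.1 against 19.5 to 20.5 CPM (0.39, SE 0.12, unadjusted p = 0.00464). *Gdf15* (0.41) and *Pmaip1* (0.39) overlapped.

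All 30 genes of the G2 and M phase list had a negative value, from *Ttk* (-0.43) to *Cenpe* (-0.01), with a median of -0.22 and none past the threshold or without overlap. This direction did not hold throughout, since the median was 0.152 without untreated replicate 1, 0.105 without gesicle replicate 3 and 0.41 with limma voom. Their mean level varied far more between replicates (0.63, 0.18 and -0.81 untreated, and 0.51, -0.19 and -1.04 with gesicles) than between the groups, and in same-numbered pairs it differed by -0.12, -0.37 and -0.23. In 20% O2 the median of these genes was 0.62. Ribosomal proteins (0.06), the nuclear-encoded respiratory chain (0.03), mitochondrially encoded genes (0.08), lysosomal genes (0.09) and endocytosis genes (0.02) had medians near 0 with no member past the threshold.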

How the data were processed

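Bulk poly-A RNA-seq (151 bp paired-end) was done on 18 libraries of tail TFs. Per the labels and the study's methods, the authors trimmed reads with cutadapt, checked them with FastQC 0.11.8 and MultiQC 1.20, aligned them with STAR (GRCm38) and quantified genes with RSEM 1.3.3. The authors deposited estimated counts (expected counts) as whole numbers, not normalized, for 55487 genes and 4 transgene sequences. Estimated counts can be split between near-identical genes, so *H2* family, *Oas*, *Ifit* and predicted (*Gm*) genes are uncertain.

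After filterByExpr, edgeR 4.0.16 (R 4.3.3) was run as one fit of all 18 libraries with 1 coefficient per group, TMM scaling and the quasi-likelihood F test. Called genes had a fold change of 1.5 or more and an adjusted p (Benjamini-Hochberg) below 0.05. SE was taken as the size of the log2 fold change over the root of F. CPM are counts scaled by the library size in tested genes and the TMM factor. List levels are means of log2 CPM with a prior count of 1. Contrasts were gesicles against none at each O2 level, their interaction, 1% against 20% O2, and cKO against Ctrl in 1% O2. Alternatives were DESeq2 1.42.0, limma 3.58.1 voom with sample weights, the replicate block, RLE scaling, other filters and fits of fewer groups, tests against other thresholds, and each library left out. Tools were tested on simulated data. The floor of 3 counts covers counting error only. No library was a copy of another (smallest chi-square per degree of freedom 15.3, replicates 2 of the 2 groups). Positions came from GENCODE M21 for 55227 genes.

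The replicate numbers were read as pairs. After subtracting group means, same-numbered libraries of the 2 groups correlated across 10717 genes at 0.131, 0.257 and 0.367, all over 0.1, and their sex-linked counts matched. Differently numbered libraries reached 0.275 and 0.161, and same-numbered gesicle libraries of the 2 O2 levels were at -0.274, 0.297 and -0.269. Differently numbered gesicle libraries reached 0.637 (replicate 1 in 20% O2 with 3 in 1% O2) and 0.354 (2 with 1). The block nevertheless took the number as shared by all Ctrl groups, with and without gesicles. The study's methods give tail TFs from mice of both sexes (n = 3). For parallel cultures they give 1 male and 2 female Ctrl replicates, the same split as the sex-linked RNA here. They do not say which mouse each of these libraries came from, so p-values measure only the spread between these samples. The gene lists, the comparison and the rule for named genes were chosen with earlier results of these data known. Genes were named by rule: HIF genes and transgenes, the 15 higher and 15 lower genes described in the results, and in each list the extremes, the members past an unadjusted p of 0.05 and the oxygen-called hypoxia and glycolysis members. Other members that are named, and *Xist*, *Ddx3y*, *Gm47204*, *Gm8226*, *Chad* and *Agtr2*, were chosen after their values were seen. Single values of 2 list members are not reported here.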

Additional observations from a re-analysis of the deposited data

Results flagged for a closer look

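The *tdTomato* row was outside the comparisons. It held 5 counts in the 3 gesicle libraries in 1% O2 (3, 1 and 1) and 0 in the 3 untreated ones, where the smallest two-sided p that an exact permutation test can give is 0.1, which it gave. Over the series, 5 of the 6 gesicle libraries held 8 counts in all and the 12 other libraries 0 (exact permutation test of the rate over 18564 arrangements, two-sided p = 0.0007, a comparison chosen after the counts were seen). These are single reads.

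In 2 lists every gesicle library lay above the untreated mean in 1% O2 and below it in 20% O2. For BMP and TGF-beta targets the 3 levels were 0.15, 0.50 and 0.18 in 1% O2 and -0.09, -0.09 and -0.50 in 20% O2, and the median interaction of the 30 genes was 0.497 on the log2 scale. The untreated libraries in 1% O2 were at -0.51, 0.31 and 0.20, so they overlapped the gesicle ones, and the pair with number 3 differed by -0.02. For the contractile cytoskeleton and SRF or YAP targets they were 0.23, 0.16 and 0.05 against -0.17, -0.10 and -0.05, and the median interaction of 31 genes was 0.212. Within pairs number 3 differed by -0.06 in 1% O2 and number 2 by 0.06 in 20% O2. With gesicles, markers of pericytes and smooth muscle were at 0.42, 0.37 and 0.04 in 1% O2 and -0.77, -0.67 and -0.12 in 20% O2 (untreated in 1% O2 -0.69, 0.13 and 0.56), with a median interaction of 0.539 over 8 genes, and their part in it was not tested. The difference was not tested for either list, and no member of the 2 lists had an interaction at an unadjusted p under 0.05. These are 2 of 39 lists looked at.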

How the results depend on the processing

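In 1% O2 the count of called genes was 0 in edgeR and stayed 0 under the other alternatives, except 9 with DESeq2 and the replicate block and 235 (126 higher, 109 lower) at an unadjusted p with the fold change minimum. In 20% O2 it was 4 in edgeR, 46 in DESeq2, 74 in DESeq2 and 2 in edgeR with the replicate block. It was 23 without a filter, 11 with limma voom and 1 in fits of fewer groups (with the block also 1). That 1 was *B2m* or *Gm8226*, and not among the 4. The count was 0 against a fold change of 1.5, 390 unadjusted, and 0 to 2 with a library left out. The interaction had 0, then 3 in DESeq2 with the block (*Chad*, *Agtr2* and *Gm47204*), 1 in fits of the 12 Ctrl libraries (with the block also 1; *Gm8226*, which was at 0 counts in the 3 gesicle libraries in 20% O2 and at 32 to 62 in the other 9), 200 unadjusted, and 0 with any library left out.

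List medians kept their sign for the glycolysis (-0.38 to -0.18), hypoxia, interferon (1.29 to 4.19) and MHC class I lists in all 16 alternatives. With a library left out, medians ranged from 0.0709 to 0.183 for p53 targets, 0.00841 to 0.0751 for collagen hydroxylases and crosslinkers, -0.199 to -0.0211 for fatty acid genes, -0.0173 to 0.0748 for endocytosis and -0.0235 to 0.121 for VEGF genes. *Hif1a* ranged from -0.209 to 0.016 with a library left out, turning positive without untreated replicate 1. *Abcg1* ranged from -2.51 to 0.145, turning positive without that library, and was 0.184 with voom. The cause was not tested. The G2 and M phase median (-0.22) turned to 0.152 without untreated replicate 1, 0.105 without gesicle replicate 3 and 0.41 with voom. Of 624 list medians under the alternatives, 574 kept their direction. The 9 genes called with DESeq2 and the block were not called in edgeR.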
